A study of Mus musculus with 6 samples.

Results

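The early secretory pathway genes described here are 59 of the 21958 protein-coding genes in the deposited count table. They were chosen by gene name alone: Sec, Srp or Ssr followed by a digit, Spcs and Stt3, the COPI coat genes Copa to Copz, and Srpr, Srprb, Rpn1, Rpn2, Ddost and Dad1. Of these, 53 passed edgeR's filter on low counts and were tested among 12255 genes. The other 6, Srp54a, Sec16b, Sec31b, Sec1, Sec14l3 and Sec14l4, had at most 2.01 CPM (counts scaled to library size by edgeR's TMM method) in any library and were not tested. Of the members, 6 matched by name but belong elsewhere: Sec1 encodes a fucosyltransferase, and the Sec14-like genes encode lipid-binding proteins.

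Synaptoneurosomes (SN), a filtered brain preparation rich in pinched-off nerve endings and the dendritic spines attached to them, were prepared from the hippocampus and neighbouring cortex of FVB mice aged 6 to 8 weeks, with tissue of several mice pooled. Both groups were of this strain, and the labels name no genetic change. In 3 libraries, called polyribosomes here, SN received a pulse of 50 µM NMDA and 10 µM glutamate for 30 s, then 120 µM APV, an NMDA receptor blocker, and were incubated until 20 min, after which the light and heavy polyribosomal fractions of a sucrose gradient were pooled. The other 3 libraries, total RNA, held the unfractionated RNA of unstimulated SN, which were kept on ice with cycloheximide, an inhibitor of translation. The groups differed in stimulation, in handling (prewarmed and incubated warm, or kept on ice with cycloheximide) and in fraction, which cannot be told apart. A log2 fold change here is the level on polyribosomes against that in total RNA.

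Secreted and membrane proteins begin their route at the endoplasmic reticulum (ER). The signal recognition particle (SRP) binds the signal peptide of a nascent chain and brings its ribosome to the SRP receptor. The chain then passes through the Sec61 channel, helped by the translocon-associated protein (TRAP) complex. Signal peptidase removes the signal peptide, and oligosaccharyltransferase (OST) attaches N-linked glycans. COPII vesicles carry cargo from the ER to the Golgi, and COPI vesicles return material to the ER. In neurons this route supplies receptors, channels and adhesion proteins to dendrites and synapses.

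Since the comparison concerns association with ribosomes, the sequence around the annotated start codon is shown for the 11 members that passed the threshold in the fit with the replicate block described below. Each is 20 bases of the Gencode vM21 transcript (GRCm38) that was used for its length, read along the transcript from 10 bases before the start codon to 7 after it. Capitals mark the base at position -3, the start codon and the base at position +4, counted from the A of the start codon. The first 8 were higher on polyribosomes and the last 3 lower.
Sec61b: aggcatcAgcATGCcgggtc
Sec61a1: agccgccGccATGGcgatca
Ssr2: ggtgctcAcgATGAggctgc
Spcs1: tcccttgTcgATGGcgcggg
Rpn1: gctcgcgGtcATGGagtcgc
Rpn2: gctcggaGgaATGGcgccgc
Ddost: ctgctggGagATGAagatgg
Dad1: cgtgttcGtcATGTcggcgt
Sec23a: aagtgctAccATGAcaacct
Sec24a: cccgggcGccATGGcccagc
Sec24b: ccgcgccGtcATGTcggccc

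A purine at -3 with a G at +4 is the surrounding that vertebrate ribosomes favour most. It was found in 26 of the 52 tested members with an annotated context (50.0%) and in 45.2% of the 11788 such genes tested. The purine alone or with the G was present in 50 members (96.2%), against 86.2% of the genes. Rpn1, Rpn2, Sec61a1 and Sec24a had both bases. Spcs1 had the G without the purine, and the other 6 had the purine without the G. Both directions therefore included a member with both bases and members with the purine alone.

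Library totals ranged from 5294482 to 7361580 counts on polyribosomes and from 1044955 to 3738022 in total RNA, of which the members took 0.365 to 0.397% and 0.325 to 0.402%. Total RNA library 3 was the shallowest. Markers of neurons, astrocytes, oligodendrocytes, microglia and endothelial cells were all detected in every library. The summed level of the 12 neuron markers was 16409 to 21128 CPM on polyribosomes and 14174 to 18169 in total RNA, and 8 of them had positive log2 fold changes (median 0.066). All 11 astrocyte markers were positive (median 0.54), with sums of 41511 to 43926 CPM against 32708 to 37308. The 10 microglia markers were also all positive (median 0.40), with sums of 956 to 1111 against 628 to 863 CPM. For oligodendrocytes, 9 of 10 were positive (median 0.30; 11348 to 15473 against 8196 to 11619.6 CPM), and for endothelial cells 8 of 10 (median 0.24; 372 to 651 against 399 to 414 CPM). The part of glial RNA in the results below was not tested. For the markers too, the groups differed in stimulation, handling and fraction, which cannot be told apart. Within a group, the amount of a cell type and its RNA per cell cannot be told apart in such bulk samples.

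The members as a whole were spread around no change. Those of the machinery at the ER membrane were toward higher values on polyribosomes and those of the COPII coat toward lower ones. Of the 53 tested, 28 had a positive and 25 a negative log2 fold change. Their median was 0.025, against 0.00 for all genes tested. The medians of the differences within preparations 1, 2 and 3 were -0.037, 0.057 and 0.16 (mean 0.059 ± 0.097, SD, n = 3). Single members ranged from -0.62 for Sec24a to 1.24 for Sec61b.

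With group as the only term, edgeR's quasi-likelihood test called 0 members higher and 0 lower at a Benjamini-Hochberg adjusted p under 0.01, while 0.71% of all genes tested were called higher and 2.36% lower. DESeq2 called Ddost and Rpn2 higher and 0 members lower among the 51 to which it gave an adjusted p, with 3.19% and 3.77% of genes called. At an unadjusted p under 0.05 in edgeR, 10 members (18.9%) were higher, against 15.4% of all genes, and 4 (7.55%) lower, against 17.1%. Past an adjusted p of 0.05 were 5 higher members (9.43%), Sec61b, Ddost, Rpn2, Ssr2 and Rpn1, against 6.52% of genes. Sec24a alone (1.89%) was lower at that level, against 8.85%. The share of members called higher was near that of all genes and the share called lower was below it, and these differences in share were not tested.

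Libraries of the same number were taken as aliquots of 1 preparation, from their numbering and the correlations given further below. A fit with the preparation as a block was therefore set beside the group-only fit. It called 8 members higher (15.1%, against 11.8% of all genes) and 3 lower (5.66%, against 13.2%). Those higher were Sec61b, Sec61a1, Ssr2, Spcs1, Rpn1, Rpn2, Ddost and Dad1, and those lower were Sec23a, Sec24a and Sec24b. With an offset for the GC content and length of the transcript added to the block, 6 members were higher (11.3%, against 8.79%) and 0 lower (against 7.22%). Sec61b, Rpn1, Rpn2 and Dad1 were called in both blocked fits, Stt3a and Copb2 only with the offset. When preparation 1, 2 or 3 was left out of the blocked fit, 3, 2 and 7 members were higher and 1, 0 and 3 lower, and Rpn2 was among the higher ones each time. By the overlap of the groups, all 3 polyribosome libraries lay above all 3 total RNA libraries for 13 members (24.5%, against 17.4% of genes) and below them for 4 (7.55%, against 18.9%). The polyribosome library was the higher one in all 3 preparations for 17 members (32.1%, against 30.2%) and the lower one for 15 (28.3%, against 30.6%).

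**Figure D1:**
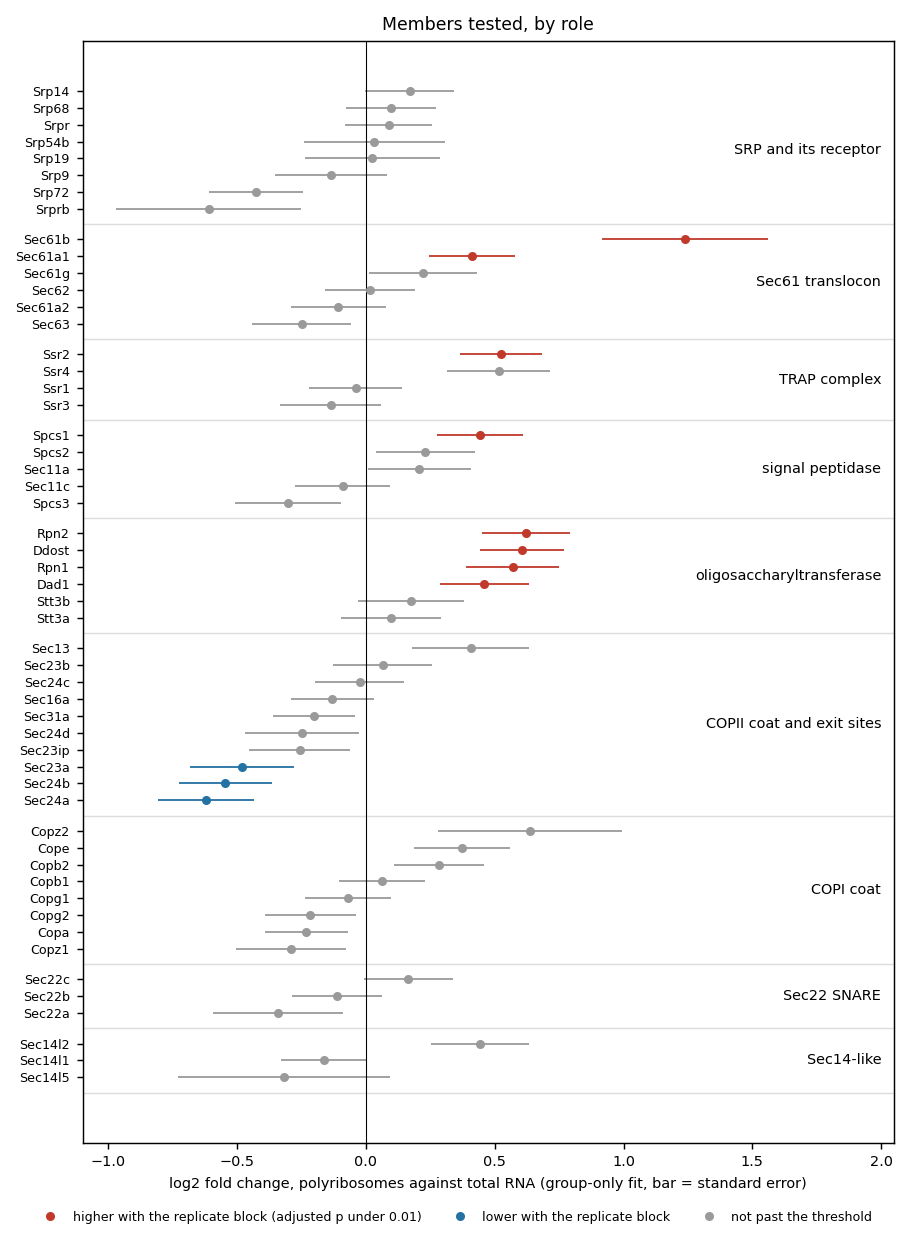
Log2 fold change (x axis, polyribosomes against total RNA, group-only edgeR fit) of the 53 tested members, grouped by role. Bars are standard errors, red points are the 8 members higher and blue points the 3 members lower in the fit with the replicate block (threshold 0.01). The 6 OST subunits all lie to the right of 0, and 8 of the 10 COPII genes lie to the left.

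Of the 8 tested genes for targeting to the ER, those of SRP and its receptor, 5 were positive and 3 negative, with a median of 0.029, and 0 passed the threshold in either fit, with or without the block. Srp14, which with Srp9 forms the part of SRP that slows elongation, was the most positive. It had 31.9, 34.0 and 36.9 CPM in polyribosome libraries 1 to 3 and 31.0, 30.1 and 29.7 in total RNA libraries 1 to 3. All polyribosome values lay above all total RNA values, but within a narrow range, and edgeR's quasi-likelihood test gave a log2 fold change of 0.17 (SE 0.17, adjusted p = 0.531), where SE is the standard error. Srprb, which anchors the SRP receptor in the ER membrane, was at the other end. It had 12.7, 14.2 and 4.53 CPM in polyribosome libraries 1 to 3 and 18.1, 20.1 and 5.75 in total RNA libraries 1 to 3. Both libraries of preparation 3 were low and the groups overlapped, and the group-only value was -0.61 (SE 0.36, adjusted p = 0.254). The polyribosome library was the lower one in each preparation, and the blocked edgeR value was -0.49 (SE 0.19, adjusted p = 0.0324). Srprb shares 29.0% of its exon bases with the annotated gene Gm20425 on the same strand, which makes the assignment of its reads uncertain. Srp72, a core protein of the particle, had 27.2 to 35.8 CPM on polyribosomes and 38.5 to 46.4 in total RNA, with no overlap. EdgeR gave -0.43 (SE 0.18, adjusted p = 0.118) in the group-only fit and -0.40 (SE 0.14, adjusted p = 0.0209) with the block, and Srp72 was called lower when the blocked fit was scaled by total counts alone. The remaining tested genes, Srp9, Srp19, Srp54b, Srp68 and Srpr, were between -0.14 and 0.099. Srp54b binds the signal peptide, and its reads are uncertain because Srp54a is a near-identical copy.

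The Sec61 channel had the member with the largest difference. Sec61b, its small beta subunit, lies on chromosome 4 from 47474658 to 47483242 of GRCm38. It had 11.4, 9.34 and 15.9 CPM in polyribosome libraries 1 to 3 and 3.23, 6.70 and 6.71 in total RNA libraries 1 to 3. All polyribosome values lay above all total RNA values, at 12.2 ± 3.33 CPM on polyribosomes against 5.55 ± 2.01 in total RNA (means ± SD, n = 3 each). These levels rest on 62 to 84 counts on polyribosomes and only 7 to 20 in total RNA. On the log2 scale the difference was 1.24 (SE 0.32, adjusted p = 0.0226) in the group-only edgeR fit and 1.15 (SE 0.26, adjusted p = 0.000153) with the block, and 0.94 with block and offset. Within preparations 1, 2 and 3 it was 1.68, 0.45 and 1.19. Without preparation 1 the blocked edgeR value was 0.74 (adjusted p = 0.0922), short of the threshold.

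Sec61a1 encodes the pore-forming alpha subunit and lies on chromosome 6 from 88503601 to 88518905. It had 167, 192 and 184 CPM in polyribosome libraries 1 to 3 and 136, 152 and 117 in total RNA libraries 1 to 3. The groups did not overlap, and total RNA library 3 was the lowest. Its log2 fold change was 0.41 (SE 0.17, adjusted p = 0.101) in the group-only edgeR fit and 0.41 (SE 0.13, adjusted p = 0.00658) with the block. With the offset it was 0.30 (adjusted p = 0.0441), which missed the threshold. An annotated antisense gene, Gm44170, covers 17.3% of its exon bases. Sec63, which helps the channel open and recruits the chaperone BiP, was the lowest of the group. It had 105, 117 and 82.6 CPM in polyribosome libraries 1 to 3 and 119.9, 145 and 94.0 in total RNA libraries 1 to 3. The ranges overlapped although the polyribosome library was lower in each preparation, and the value of -0.25 (SE 0.19, adjusted p = 0.39) from edgeR did not pass. The sign turned with the offset, to 0.12 in the blocked fit. Sec61g, Sec62 and Sec61a2 had 0.22, 0.015 and -0.11.

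The alpha paralogs were also set against each other within each library. The log2 ratio of Sec61a1 to Sec61a2 counts was 1.27, 1.42 and 1.58 in the polyribosome libraries and 0.71, 0.96 and 1.17 in the total RNA libraries. It was higher by 0.48 (SE 0.16) on polyribosomes without overlap, and the exact two-sided permutation test gave p = 0.1, the smallest that 3 against 3 allows (0.48 after Benjamini-Hochberg adjustment over 8 paralog pairs). Within preparations 1, 2 and 3 the difference was 0.55, 0.46 and 0.41, with a paired SE of 0.043. The exact two-sided sign-flip permutation test gave p = 0.25, the smallest that 3 pairs allow. The ratio of Sec23a to Sec23b was lower on polyribosomes in each preparation, at -0.37, -0.76 and -0.23 on the log2 scale. That of Sec11a to Sec11c was higher in each preparation, at 0.084, 0.52 and 0.0029. Both had the same exact sign-flip permutation p of 0.25. These ratios carried no offset for GC content or length. GC was 53.9 and 46.1% for Sec61a1 and Sec61a2, and 42.4 and 48.2% for Sec23a and Sec23b. The log2 fold changes of Sec61a1 and Sec61a2 were 0.41 and -0.097 with the block, and 0.30 and 0.050 with block and offset. Those of Sec23a and Sec23b were -0.47 and 0.023, and then -0.14 and 0.13. Nudt5 overlaps 35.9% of the exon bases of Sec61a2 on the opposite strand, and whether counting used the strand is not given. For the other pairs (Sec23a and Sec23b, Sec24a and Sec24b, Sec24c and Sec24d, Stt3a and Stt3b, Copg1 and Copg2, Copz1 and Copz2, Sec11a and Sec11c) the exact unpaired permutation p was 0.3 to 0.8.

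Of the 4 TRAP subunits, Ssr2 and Ssr4 were positive and Ssr1 and Ssr3 negative. With the block 1 of the 4 passed, against 11.8% of all genes called higher. Ssr2, the beta subunit, lies on chromosome 3 from 88575876 to 88588419. It had 86.3, 78.8 and 92.0 CPM in polyribosome libraries 1 to 3 and 61.3, 61.3 and 54.7 in total RNA libraries 1 to 3. The polyribosome values lay well above the total RNA values. Its difference was 0.52 (SE 0.16, adjusted p = 0.0399) on the log2 scale in the group-only edgeR fit and 0.51 (SE 0.13, adjusted p = 0.001) with the block, and with the offset it was 0.17 (adjusted p = 0.329). Ssr4, the delta subunit, likewise did not overlap (32.2 to 47.6 against 24.4 to 30.7 CPM), but its blocked edgeR value of 0.45 (SE 0.15, adjusted p = 0.0128) missed the threshold. Ssr3, the gamma subunit, was lowest. It had 175, 174 and 128 CPM in polyribosome libraries 1 to 3 and 189.7, 201 and 130.4 in total RNA libraries 1 to 3. Its ranges overlapped broadly, its log2 fold change was -0.14 (SE 0.19, adjusted p = 0.67) by edgeR, and it became 0.23 with the offset.

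Signal peptidase also had 1 of 5 members past the threshold with the block, against 11.8% of all genes called higher. Spcs1, an accessory subunit, lies on chromosome 14 from 30999826 to 31001672. It had 63.6, 76.4 and 80.1 CPM in polyribosome libraries 1 to 3 and 50.4, 54.9 and 57.5 in total RNA libraries 1 to 3. No library of either group reached into the range of the other. The log2 fold change was 0.44 (SE 0.17, adjusted p = 0.0825) in the group-only edgeR fit and 0.42 (SE 0.13, adjusted p = 0.00681) with the block, and 0.21 (adjusted p = 0.2) with the offset. Glt8d1 overlaps 19.5% of its exon bases on the opposite strand. Spcs3, a subunit needed for cleavage, was the lowest of the 5. It had 64.7, 86.9 and 62.6 CPM in polyribosome libraries 1 to 3 and 85.4, 111 and 63.3 in total RNA libraries 1 to 3. The ranges overlapped, and edgeR gave -0.30 (SE 0.20, adjusted p = 0.328), which turned to 0.099 with block and offset. The catalytic subunits Sec11a and Sec11c had 0.21 and -0.09, and Spcs2 had 0.23.

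OST was the role group in which every tested member had a positive value. The median of its 6 genes was 0.51, and the medians within preparations 1, 2 and 3 were 0.41, 0.40 and 0.72. In the blocked fit 4 of 6 were higher, against 11.8% of all genes. With the offset it was also 4 of 6 (Rpn1, Rpn2, Dad1 and Stt3a), against 8.79%. OST subunits that the name rule left out did not all have positive values. In the group-only fit Ostc had -0.021, Magt1 0.051, Tusc3 0.34, Krtcap2 0.51, Ost4 0.56 and Tmem258 0.64. The difference between OST and the other groups was not tested.

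Rpn1, or ribophorin I, presents substrates to the enzyme and lies on chromosome 6 from 88084473 to 88105304. It had 295, 350.2 and 407 CPM in polyribosome libraries 1 to 3 and 209.8, 268 and 230.2 in total RNA libraries 1 to 3. Every polyribosome library was above every total RNA library, at 351 ± 56.1 CPM on polyribosomes against 236 ± 29.7 in total RNA (means ± SD, n = 3 each). A log2 fold change of 0.57 (SE 0.18, adjusted p = 0.0448) was found in the group-only edgeR fit and 0.55 (SE 0.13, adjusted p = 0.000193) with the block, and 0.58 (adjusted p = 5.4e-05) with the offset.

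Rpn2, or ribophorin II, is a further membrane subunit and lies on chromosome 2 from 157279017 to 157326319. It had 285, 276 and 299 CPM in polyribosome libraries 1 to 3 and 199, 206 and 149.6 in total RNA libraries 1 to 3. The polyribosome libraries were close to each other, and total RNA library 3 was clearly the lowest. EdgeR gave a log2 fold change of 0.62 (SE 0.17, adjusted p = 0.0286) in the group-only fit and 0.62 (SE 0.13, adjusted p = 3.92e-05) with the block, and 0.53 (adjusted p = 0.000251) with the offset.

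Ddost, the OST48 subunit, lies on chromosome 4 from 138304730 to 138312628. It had 174, 188 and 209.6 CPM in polyribosome libraries 1 to 3 and 128, 133 and 113 in total RNA libraries 1 to 3. The gap between the groups was wider than the range within either, at 191 ± 17.8 CPM on polyribosomes against 124 ± 10.1 in total RNA (means ± SD, n = 3 each). This came to 0.61 (SE 0.16, adjusted p = 0.0255) on the log2 scale in the group-only edgeR fit and 0.59 (SE 0.13, adjusted p = 8.47e-05) with the block, and with the offset 0.35 (adjusted p = 0.019).

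Dad1, a small subunit named as a defender against cell death, lies on chromosome 14 from 54235479 to 54254104. It had 57.1, 61.2 and 69.0 CPM in polyribosome libraries 1 to 3 and 43.7, 41.9 and 52.7 in total RNA libraries 1 to 3. The highest total RNA library stayed just below the lowest polyribosome library. The log2 fold change was 0.46 (SE 0.17, adjusted p = 0.0803) in the group-only edgeR fit and 0.44 (SE 0.14, adjusted p = 0.00606) with the block. With the offset it was larger, 0.62 (adjusted p = 4.97e-05).

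The catalytic subunits had the smallest values of the group. Stt3a had 94.8, 103 and 95.3 CPM in polyribosome libraries 1 to 3 and 93.1, 114 and 62.3 in total RNA libraries 1 to 3. The ranges overlapped, since total RNA library 2 was the highest of all 6 and library 3 the lowest. EdgeR gave 0.097 (SE 0.19, adjusted p = 0.768), a value that was -0.011 with total-count scaling and -0.076 without total RNA library 3. With block and offset it was 0.55 (adjusted p = 0.000178). Stt3b was 0.17, and its ranges overlapped as well.

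**Figure D2:**
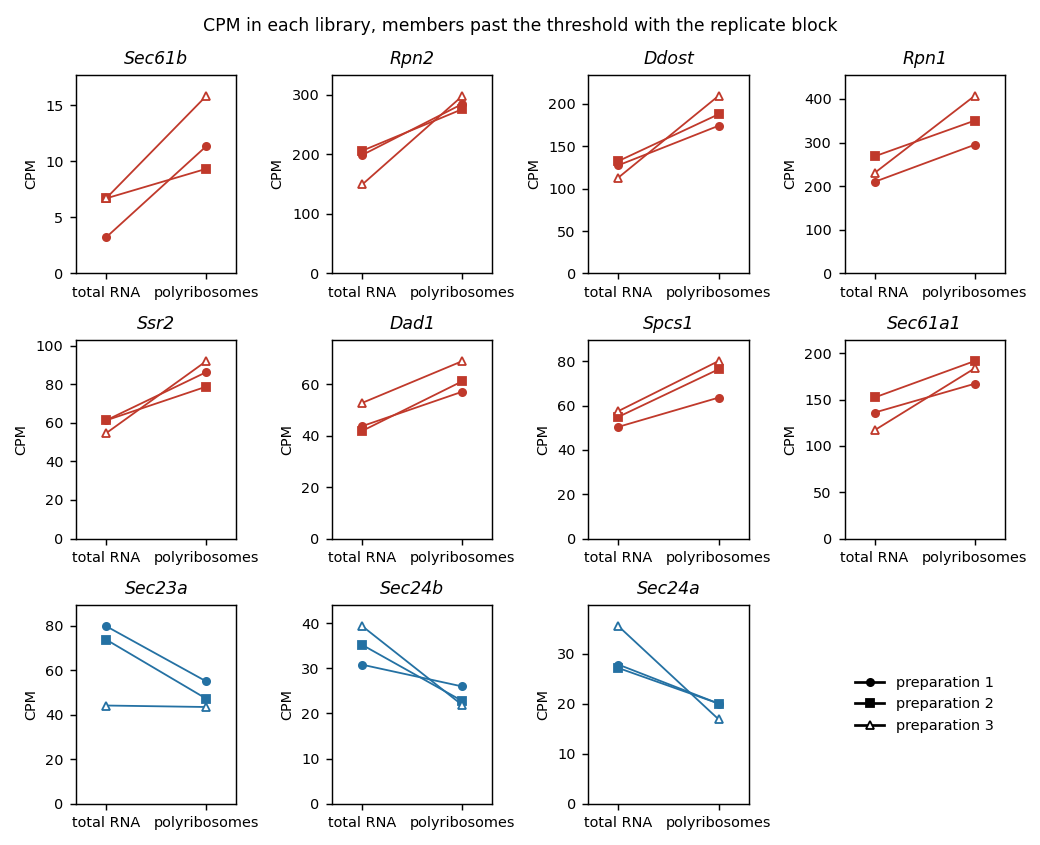
CPM (y axis, from 0) of the 11 members past the threshold with the replicate block, in total RNA (left) and on polyribosomes (right), with a line joining the libraries of each preparation. All lines of the 8 red genes go up and those of the 3 blue genes go down, except that Sec23a in preparation 3 is nearly level (44.1 and 43.4 CPM).

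COPII coat genes among the members mostly had negative values. Of the 10 tested ones, with the exit site proteins, 8 were negative. Their median was -0.22 (-0.20, -0.25 and -0.15 within preparations 1, 2 and 3), and 3 of 10 were lower in the blocked fit, against 13.2% of all genes. Without total RNA library 1 the median was -0.14. With the offset in the blocked fit the median was -0.090 and 0 of the 10 were called, against 8.79% of all genes higher and 7.22% lower. Outside the name rule, the COPII genes Sar1a and Sar1b had 0.084 and 0.44 in the group-only fit. Preb, Tfg and Mia3, also of ER exit sites, had 0.090, 0.23 and 0.21. Sec24 proteins select cargo, and Sec23 proteins form the inner coat with them.

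Sec24a lies on chromosome 11 from 51692264 to 51763634. It had 20.0, 20.0 and 16.9 CPM in polyribosome libraries 1 to 3 and 27.8, 27.1 and 35.5 in total RNA libraries 1 to 3. The polyribosome libraries were all below the total RNA libraries, of which library 3 was the highest. The log2 fold change was -0.62 (SE 0.19, adjusted p = 0.0386) in the group-only edgeR fit and -0.59 (SE 0.16, adjusted p = 0.00202) with the block, and -0.23 (adjusted p = 0.278) with the offset.

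Sec24b lies on chromosome 3 from 129982759 to 130061553. It had 26.0, 22.7 and 21.8 CPM in polyribosome libraries 1 to 3 and 30.8, 35.2 and 39.3 in total RNA libraries 1 to 3. Again the groups did not overlap. Its log2 fold change was -0.55 (SE 0.18, adjusted p = 0.0545) in the group-only edgeR fit and -0.52 (SE 0.15, adjusted p = 0.00447) with the block, and -0.41 (adjusted p = 0.0264) with the offset.

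Sec23a lies on chromosome 12 from 58958383 to 59012017. It had 54.9, 47.1 and 43.4 CPM in polyribosome libraries 1 to 3 and 79.7, 73.7 and 44.1 in total RNA libraries 1 to 3. Here the groups overlapped, with total RNA library 3 as low as the polyribosome libraries. The differences within preparations 1, 2 and 3 were -0.53, -0.64 and -0.022. EdgeR gave -0.48 (SE 0.20, adjusted p = 0.114) in the group-only fit and -0.47 (SE 0.13, adjusted p = 0.00313) with the block, and -0.14 (adjusted p = 0.426) with the offset.

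Sec13, a small protein of the outer coat that also serves in the nuclear pore, was the exception at the upper end. It had 33.0, 28.9 and 45.5 CPM in polyribosome libraries 1 to 3 and 27.3, 21.1 and 35.5 in total RNA libraries 1 to 3. It was higher on polyribosomes in each preparation, but the ranges overlapped, and edgeR gave 0.41 (SE 0.23, adjusted p = 0.23). The value was 0.22 without polyribosome library 3 and 0.23 without total RNA library 2. Sec31a, its partner in the outer coat, had 50.9 to 55.2 CPM on polyribosomes and 58.6 to 63.3 in total RNA, without overlap, with a log2 fold change of -0.20. Sec23b, Sec24c, Sec24d, Sec16a, which organizes exit sites, and Sec23ip, which binds the inner coat, were between -0.26 and 0.066.

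COPI genes among the members were evenly divided, with 4 positive and 4 negative and a median of -0.0027. None of the 8 passed the threshold in the group-only or the blocked fit of edgeR's quasi-likelihood test, DESeq2 called 0, and at an unadjusted p under 0.05 in the group-only fit the count was also 0. Copz2, a zeta subunit, had the highest value. It had 8.25, 4.82 and 4.12 CPM in polyribosome libraries 1 to 3 and 3.48, 3.68 and 4.79 in total RNA libraries 1 to 3. Only library 1 stood clear of the other group, on low counts, and edgeR gave 0.64 (SE 0.36, adjusted p = 0.233). Copz1, the other zeta subunit, had the lowest of the 8. It had 35.8, 34.3 and 26.8 CPM in polyribosome libraries 1 to 3 and 46.9, 41.9 and 24.9 in total RNA libraries 1 to 3. The ranges overlapped, with both libraries of preparation 3 low, and edgeR gave -0.29 (SE 0.21, adjusted p = 0.371). Copb2 and Cope did not overlap between the groups and had 0.28 and 0.37, and Copb2 passed in the blocked fit with the offset, at 0.43 (adjusted p = 0.00527) by edgeR. Copa, Copb1, Copg1 and Copg2 lay between -0.23 and 0.064. Mest overlaps 23.0% of the exon bases of Copg2 on the opposite strand. Arcn1, a COPI gene outside the name rule, had -0.31 in the group-only fit, with the polyribosome library lower in each preparation.

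Sec22 genes encode or resemble a SNARE of ER-Golgi vesicles. Sec22c had 60.6, 64.3 and 57.4 CPM in polyribosome libraries 1 to 3 and 48.2, 51.2 and 67.1 in total RNA libraries 1 to 3. Total RNA library 3 was the highest of all 6, and edgeR gave 0.17 (SE 0.17, adjusted p = 0.549). Sec22a had 11.9, 8.28 and 7.62 CPM in polyribosome libraries 1 to 3 and 14.2, 10.4 and 9.59 in total RNA libraries 1 to 3. Its polyribosome library was the lower one in each preparation, yet the ranges overlapped, at -0.34 (SE 0.25, adjusted p = 0.369) by edgeR. Sec22b was -0.11.

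Among the Sec14-like genes, Sec14l2 had 57.2, 49.4 and 74.5 CPM in polyribosome libraries 1 to 3 and 40.7, 44.9 and 48.9 in total RNA libraries 1 to 3. Its ranges came close to each other without overlapping, and edgeR gave 0.44 (SE 0.19, adjusted p = 0.122), or 0.39 (SE 0.14, adjusted p = 0.0167) with the block. Sec14l5 had 3.38, 2.11 and 2.68 CPM in polyribosome libraries 1 to 3 and 3.48, 2.01 and 6.71 in total RNA libraries 1 to 3. Total RNA library 3 was high on few counts, and edgeR gave -0.32 (SE 0.41, adjusted p = 0.633). Sec14l1 was -0.16.

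Compared per kilobase of exon, most members were above the median gene in SN. The tested members had a median level over the 6 libraries of 17.8 CPM per kb, against 6.85 for the 12238 tested genes with an annotated length, and 44 of 53 were above the latter. The order was read within each group. Rpn2 was at 102 ± 4.0 CPM per kb on polyribosomes and 66.0 ± 11.01 in total RNA (SD, n = 3). Rpn1 followed at 96.5 ± 15.5 and 65.0 ± 8.2, and Ddost at 89.9 ± 8.4 and 58.7 ± 4.8. These OST subunits were the 3 highest members in both groups, and neighbours in their order were closer than the larger of their SDs. Ssr2 came next on polyribosomes, at 66.3 ± 5.1 CPM per kb. In total RNA it was at 45.7 ± 3.0, beside Stt3b at 46.9 ± 13.1 and Sec62 at 46.1 ± 5.9, which did not differ beyond their spread. The called COPII genes were lower in both groups, with Sec24a at 2.83 CPM per kb on polyribosomes and 4.49 in total RNA, and Sec23a at 11.8 and 16.0.

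The machinery at the ER membrane (Sec61, TRAP, signal peptidase and OST, 21 genes) thus had 15 positive values (71.4%, against 50.1% of all genes). The SRP receptor genes, grouped with SRP above, were not counted in it. These 21 genes had a median of 0.22, and held the 8 members called higher with the block and 0 called lower. The 18 tested coat genes of the name rule had 6 positive values (33.3%) with a median of -0.17. That median joined the COPII genes (-0.22) with the evenly divided COPI genes (-0.0027). The coat genes held the 3 members called lower, all of COPII, and 0 called higher. With block and offset, 8.79% of all genes were called higher and 7.22% lower. In that fit the coat genes held 0 called lower and 1 higher (Copb2), with a median of -0.041. The ER membrane group held 5 higher and 0 lower, with a median of 0.23. This difference between the groups was not tested. The related genes that the name rule left out were described in the same way, beside the shares over all genes of 6.52% higher past the threshold of 0.05, and 11.8% higher and 13.2% lower with the block. Of 22 other translocon and OST genes tested, such as those of the ER membrane complex, 17 were positive (median 0.29). EdgeR called 0 of them in the group-only fit, 6 higher and 0 lower with the block. They ranged from -0.058 for Emc6 to 1.15 for Emc10, both subunits of that complex. All 15 ER chaperones and folding enzymes were positive (median 0.58), with 0 called in the group-only fit, 7 higher past the threshold of 0.05, and 12 higher and 0 lower with the block. Their range was from 0.12 for Dnajc3, a cochaperone of BiP, to 0.77 for Sdf2l1, which also works with BiP. Of 31 other ER-Golgi traffic genes, 24 were positive (median 0.21), with 0 called in the group-only fit and 3 higher and 0 lower with the block. These extended from -0.32 for the SNARE Gosr1 to 0.54 for the cargo receptor Tmed9.

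**Figure D3:**
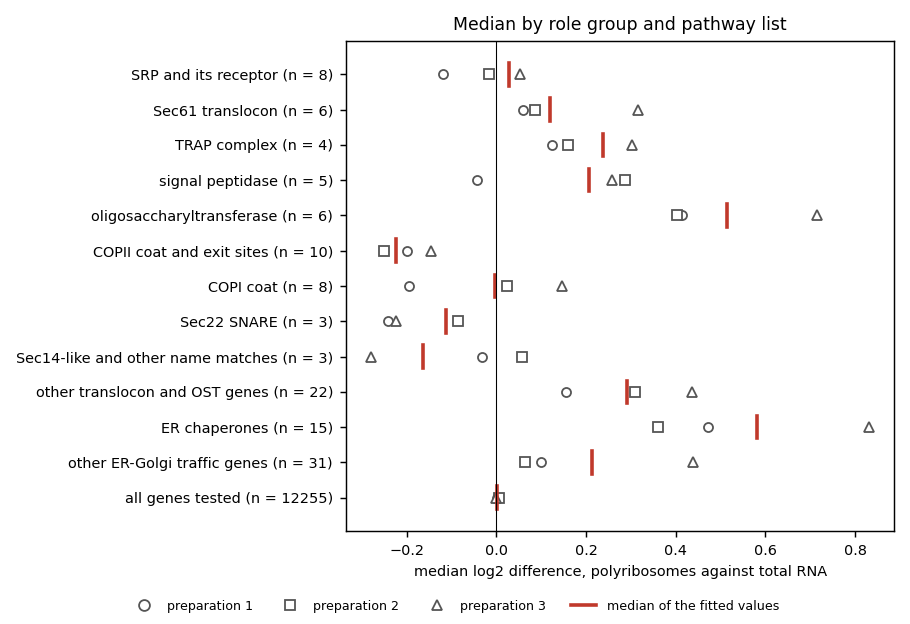
Median log2 difference (x axis, polyribosomes against total RNA) of each role group and pathway list within preparations 1 to 3 (open symbols) and in the group-only fit (red line), with the number of tested genes. OST (0.51) and the ER chaperones (0.58) are above 0 in all preparations. So are Sec61, TRAP, the other translocon and OST genes and the other ER-Golgi traffic genes. The COPII genes (-0.22) and the Sec22 genes (-0.11) are below 0 in all, and all genes tested are at 0.00.

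The fold changes of the members went along with the base composition and length of their transcripts. The 8 members higher with the block had transcripts of 564 to 3633 bases (median 2438) with a GC content of 46.8 to 55.7%. The 3 lower ones were longer, 4109 to 6581 bases, with 42.4 to 50.1% GC. Across the 53 members, the log2 fold change had a Pearson correlation of 0.45 with GC content (Spearman 0.46) and of -0.56 with transcript length (Spearman -0.56). Across the 12238 genes with these values it was 0.53 and -0.32. These points are genes of the same 6 libraries and are not independent replicates. In the blocked fit with the offset, the correlations over the members were -0.12 and -0.18. The offset was fitted to these same libraries and takes up any group difference that follows GC content or length. A fall in the correlations was therefore built in and is not a separate check. The part of composition and length in the group differences was not tested beyond this offset. It left Sec61b, Rpn1, Rpn2 and Dad1 past the threshold, and left Ssr2, Spcs1, Ddost, Sec61a1 and all 3 COPII genes short of it.

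**Figure D4:**
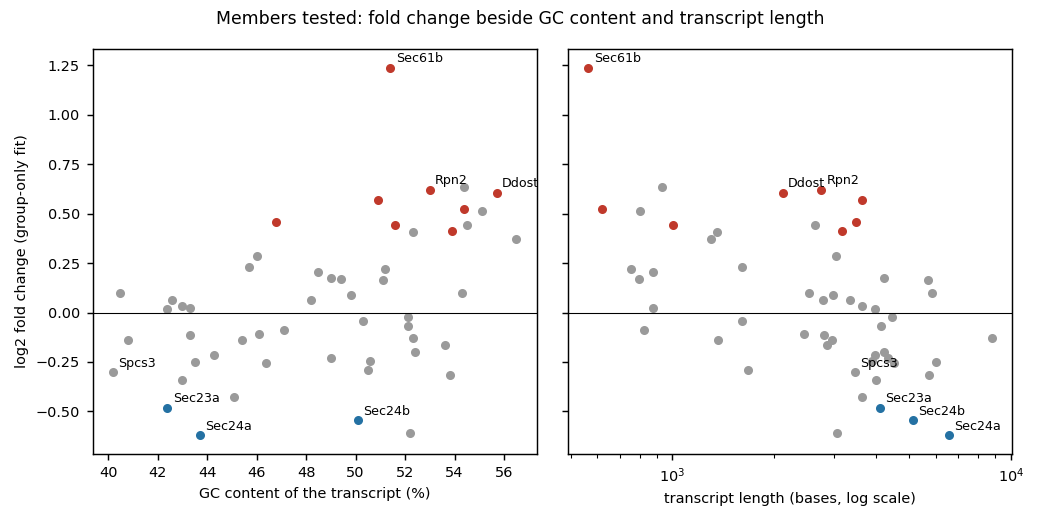
Log2 fold change (y axis, group-only fit) of the 53 tested members against the GC content of the transcript in percent (left) and its length in bases on a log axis (right). Red points are the 8 members higher and blue points the 3 lower with the replicate block, and the lower ones have transcripts of 4109 to 6581 bases.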

How the data were processed

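Libraries were depleted of ribosomal RNA. The authors aligned reads to GRCm38 with STAR (2.5.2b in the submitters' processing notes), assigned them to genes of Gencode vM6 (basic set), and deposited the resulting raw counts. The table also holds the authors' own comparison (mean, log2 fold change, standard error, statistic and p-values), which was not used. The use of strand in counting is not given in the sources used here.

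Counts were fitted with edgeR 4.0.16 in R 4.3.3 (TMM normalization, filterByExpr, quasi-likelihood test, group as the only term, Benjamini-Hochberg adjustment over 12255 genes, threshold 0.01), with the procedure tested on simulated data. Alternatives were DESeq2 1.42.0, other normalizations, no filter, the replicate block, an offset for the GC content and length of transcripts (splines with 5 df, from Gencode vM21 on the same build, available for 99.9% of genes), and leaving out libraries. Log2 differences within preparations used a prior count of 2, and paralog ratios a pseudocount of 0.5. Same-numbered libraries were treated as pairs, since the study divided each preparation into aliquots and the deviations of same-numbered libraries from their group means correlated at 0.366, 0.258 and 0.380 (other pairs, -0.349 to 0.108). P-values of the group-only fit measure the spread between libraries within a group. Those of the blocked fit set the group difference against a spread over these preparations. In both fits edgeR draws this spread partly from other genes, so a small p does not rest on 1 gene's own replicates alone. Blocked SEs of Rpn1, Rpn2 and Ssr1 were close, at 0.125, 0.127 and 0.124. Rpn2 itself differed by 0.52, 0.42 and 0.99 within preparations 1, 2 and 3. Replicates differed by more than sampling noise, so each was counted.

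Members and lists were chosen with earlier results of these data known. Described with full values were members past the threshold in the group-only fit, those past it with the block, and the highest and lowest of each role group. Of the pathway lists, genes past the group-only threshold or else the highest and lowest were named. Others that are named with values were added for their role or their groups' overlap after the values were seen. Of 70 pathway genes listed, 69 were found by name.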

Additional observations from a re-analysis of the deposited data

How the results depend on the processing

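Under the alternatives fixed at the start, members called higher, 0 with group as the only term, were 1 without a filter (Sec61b), 2 in DESeq2, 5 with the threshold at 0.05, 8 with the replicate block and 6 with block and offset. Members called lower, also 0, were 3 with the replicate block and 1 with the threshold at 0.05. The block raised calls over all genes as well, as given above. Settings of the blocked fit and the paired paralog test were added after seeing the data. Total-count scaling left 5 higher and made 4 lower (Srp72 added), and leaving out 1 preparation gave 2 to 7 higher and 0 to 3 lower. Without preparation 1, 3 were higher (Ddost, Rpn1 and Rpn2) and 1 lower (Sec24b). Without preparation 2, 2 were higher (Rpn2 and Sec61b) and 0 lower. Without preparation 3, 7 were higher, and the 3 lower were Copa, Sec23a and Spcs3. Rpn2 was called in all of these. The offset gave 0 lower. The median of the members became -0.082 with total counts, which moved the median of all genes to -0.11, and lay between -0.059 and 0.099 without single libraries.

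Signs turned for 5 named members. With the offset, without and with the block, Sec63 was 0.11 and 0.12, Ssr3 0.23 and 0.23, and Spcs3 0.12 and 0.099. With block and offset Sec22a was 0.022. Stt3a was -0.011 with total counts and -0.076 without total RNA replicate 3 (to 0.30 without total RNA replicate 2). Without 1 library, 12 of the 24 named members moved by over 1.5 times in the group-only fit, none of them called with the block. Without 1 preparation, 1 of the 11 called with the block did so (Sec61b). The causes were not tested. Sec61b had 7 counts in total RNA library 3. Its group-only value was 1.33 without that library and 0.83 without total RNA library 1.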
